A study of Rattus norvegicus with 8 samples.

Results

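The 10 genes described here are regulators and stage markers of Schwann cells, the glia of peripheral nerve: *Sox10*, *Egr2*, *Pou3f1*, *Sox2*, *Nes*, *Gap43*, *Ngfr*, *Ncam1*, *S100b* and *Scn7a*. They were chosen by gene symbol through the array's annotation, which gave 1 probe for each, 10 of 22523 probes in all, a rule that uses no measured value, although the genes were proposed with earlier results of these data known. The study hybridised biotin-labelled RNA from trigeminal nerves of untreated rats, aged 85 days, to 8 bead arrays of the Illumina RatRef-12 type. It used 2 inbred strains, BDIX and BDIV, and 2 congenics that by their names hold BDIV chromosome material in an otherwise BDIX genome, namely BDIX.BDIV-Mss4a (Mss4a below) and BDIX.BDIV-Mss4d (Mss4d below). Early exposure to ethylnitrosourea is known to cause malignant schwannomas of this nerve in BDIX animals, whereas BDIV animals are known as resistant, and no animal here had been treated.

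Each strain contributed 1 array of pooled female nerves and 1 array of pooled male nerves. The number of animals in a pool and the limits of the introgressed segments were not given in the sources used here. The p-values below therefore rest on how far the female and male arrays of a strain part from the sex difference common to all strains, with n = 2 arrays per strain. The median bead signal lay between 80.2 and 145 and differed by strain, and between 47.7% and 54.3% of probes were above background on an array (detection p under 0.05), so strain and array handling cannot be told apart. The number of arrays limits the precision. Myelin genes checked the labelled tissue: 10 or 11 of the 11 that had a probe were above background on every array. Markers of sensory neurons were also present, with 15 of 16 above background on every array.

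Schwann cells arise from the neural crest and keep *Sox10* throughout their life. Cells that will myelinate pass through a promyelinating stage marked by *Pou3f1* and then switch on *Egr2*, which together with *Sox10* drives the myelin genes. Immature cells and the repair cells of injured nerve express *Sox2*, *Ngfr*, *Ncam1* and *Gap43*, and *Nes* is a marker of immature glia and progenitors.

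Promoter windows of 250 bases were available from RefSeq (GRCr8) for 5 of the 10 genes (*Egr2*, *Nes*, *Scn7a*, *Sox2* and *S100b*), not all of them upstream of the annotated gene start. The 3 below are printed because *Nes* and *Scn7a* differed past the threshold in 3 and 4 of the 6 strain comparisons, and *Egr2* held matches to named motifs. They run 5′ to 3′ on the gene's strand in lower case, with motif matches in capitals.
Egr2, chr20:21054442-21054691, minus strand: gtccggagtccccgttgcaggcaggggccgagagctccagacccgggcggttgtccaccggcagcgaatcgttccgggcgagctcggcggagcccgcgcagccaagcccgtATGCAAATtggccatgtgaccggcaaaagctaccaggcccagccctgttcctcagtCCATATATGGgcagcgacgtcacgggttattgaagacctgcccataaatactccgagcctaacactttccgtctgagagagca
Nes, chr2:175736338-175736587, plus strand: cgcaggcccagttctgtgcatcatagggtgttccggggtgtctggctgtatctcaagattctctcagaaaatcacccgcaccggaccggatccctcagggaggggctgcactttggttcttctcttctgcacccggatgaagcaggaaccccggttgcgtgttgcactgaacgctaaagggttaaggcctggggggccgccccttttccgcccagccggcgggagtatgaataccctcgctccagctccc
Scn7a, chr3:71846285-71846534, minus strand: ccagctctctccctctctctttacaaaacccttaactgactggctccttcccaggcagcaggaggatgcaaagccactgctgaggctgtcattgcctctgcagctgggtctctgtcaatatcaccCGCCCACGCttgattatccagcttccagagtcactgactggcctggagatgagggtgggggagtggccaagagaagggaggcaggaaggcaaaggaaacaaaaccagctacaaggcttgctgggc
The motifs searched on both strands were the SOX cores ACAAAG and ACAATG, the octamer ATGCAAAT bound by POU factors, the EGR motif GCGNGGGCG and the CArG box of serum response factor, which was added after the *Egr2* sequence had been read. Distances are counted back from the downstream end of the window. The *Egr2* window held the octamer at 139 bases and the CArG box at 83 bases, and the *Scn7a* window held the EGR motif on the opposite strand (CGCCCACGC) at 125 bases. Of 33469 promoter windows of the same length, 1.56% held the octamer, 4.29% the EGR motif, 1.5% a CArG box, 16.3% ACAAAG and 11.1% ACAATG. The windows of *Nes*, *Sox2* and *S100b* held none of these motifs. The *Egr2* and *Nes* windows lie wholly, and the *Scn7a* and *S100b* windows partly, within the annotated span of their gene.

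All 10 probes passed the filter for testing, which required a detection p under 0.05 on at least 2 arrays, and 9 were above background on all 8 arrays. The exception was *Ncam1*, which was not above background on the Mss4a male and BDIX female arrays. Values below are log2 signals after background correction and quantile normalization, in the order female, male. *Nes* varied most of the 10 across the 8 arrays, with an SD of 0.86 that exceeded that of 94.2% of tested probes. *S100b* varied least, with an SD of 0.22, above that of 12.2% of tested probes. Each gene rests on 1 probe, so a sequence difference between strains under that probe cannot be told apart from a difference in RNA.

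**Figure D1:**
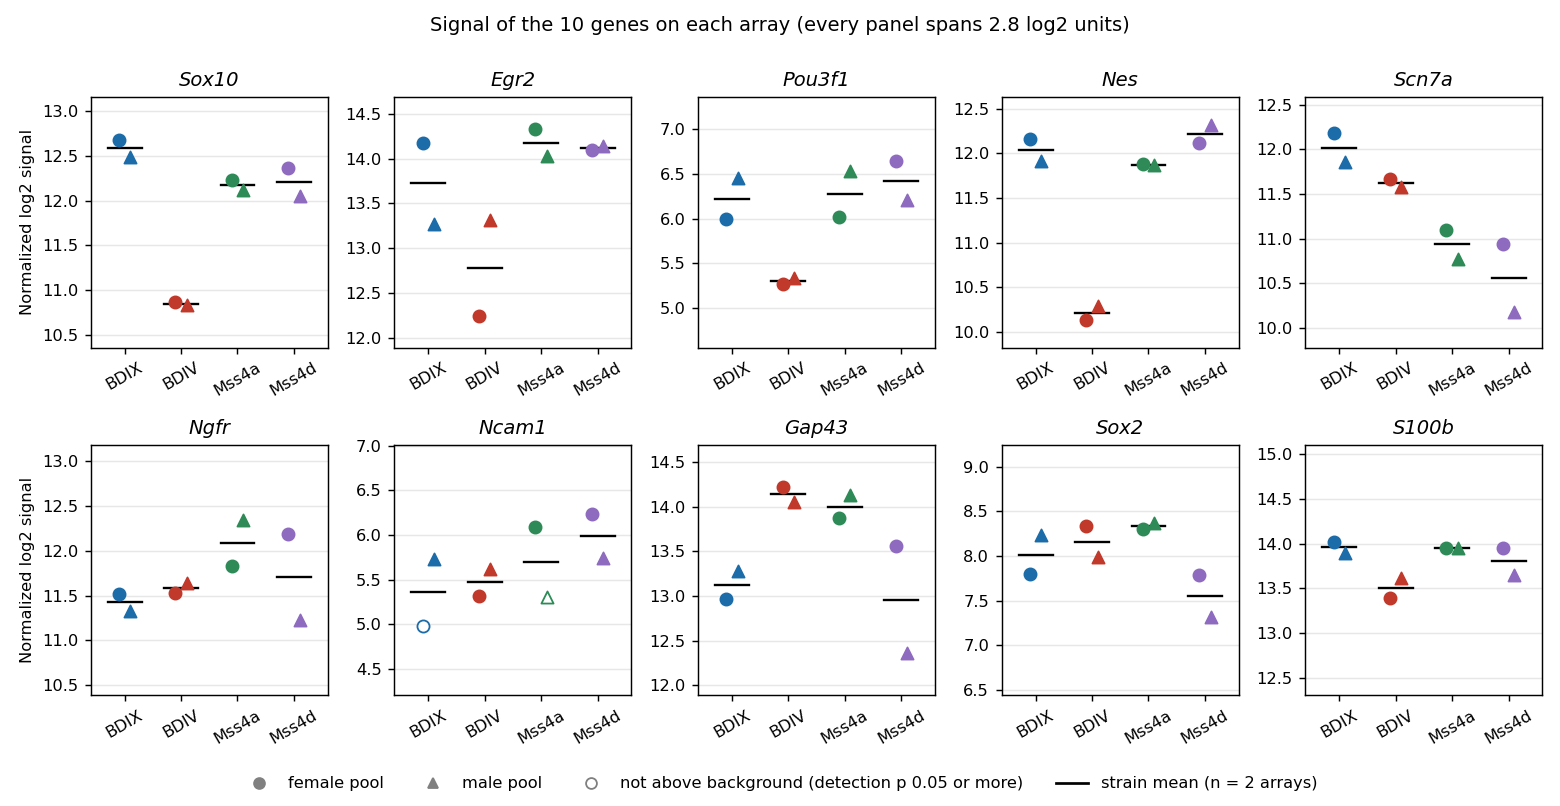
Normalized log2 signal of each gene (vertical axis, 2.8 log2 units in every panel) on each array by strain; circles are female pools, triangles male pools, open symbols were not above background and bars are strain means of 2 arrays. Both BDIV arrays lie below the other 6 for Sox10, Pou3f1, Nes and S100b, and the 4 congenic arrays lie below the BDIX and BDIV arrays for Scn7a.

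BDIV nerve had less *Sox10*, *Pou3f1* and *Nes* signal than BDIX nerve, and less *Sox10*, *Pou3f1*, *Nes* and *Egr2* signal than either congenic strain. *Scn7a* was lower in both congenic strains than in either parental strain. Of 60 pairs of gene and strain comparison, 16 passed an adjusted p under 0.05 over all 13114 tested probes (limma, Benjamini-Hochberg, two-sided), and they involved 6 of the 10 genes. Of these 16, 14 had BDIV as a partner, and comparisons that share the BDIV arrays are not independent of each other. Over all tested probes, too, more passed in the comparisons with BDIV (21%, 33.1% and 30%) than in the others (12.2%, 5.34% and 1.22%). Whole nerve was measured, so fewer cells of a type and less RNA per cell cannot be told apart.

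In BDIV against BDIX, 0 of the 10 genes rose and 3 fell, while 21% of all tested probes passed (10% higher and 11% lower). The median difference of the 10 genes was -0.42 on the log2 scale, against -0.03 for all tested probes. Against BDIX, 1 gene fell in Mss4a and 1 in Mss4d, the same gene *Scn7a*, and 0 rose in either. All tested probes passed at 12.2% for Mss4a (4.78% higher and 7.46% lower) and 5.34% for Mss4d (1.38% higher and 3.96% lower). Against BDIV, 4 of the 10 genes were higher and 1 lower in Mss4a, where 33.1% of tested probes passed (16.8% higher and 16.3% lower). In Mss4d 4 were higher and 2 lower than in BDIV, where 30% of tested probes passed (14.9% higher and 15.1% lower). The 2 congenic strains did not differ in any of the 10 genes past the threshold (1.22% of tested probes did, 0.297% higher and 0.923% lower in Mss4a), and no gene passed between the sexes (0% of tested probes, 526 at an unadjusted p under 0.05).

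**Figure D2:**
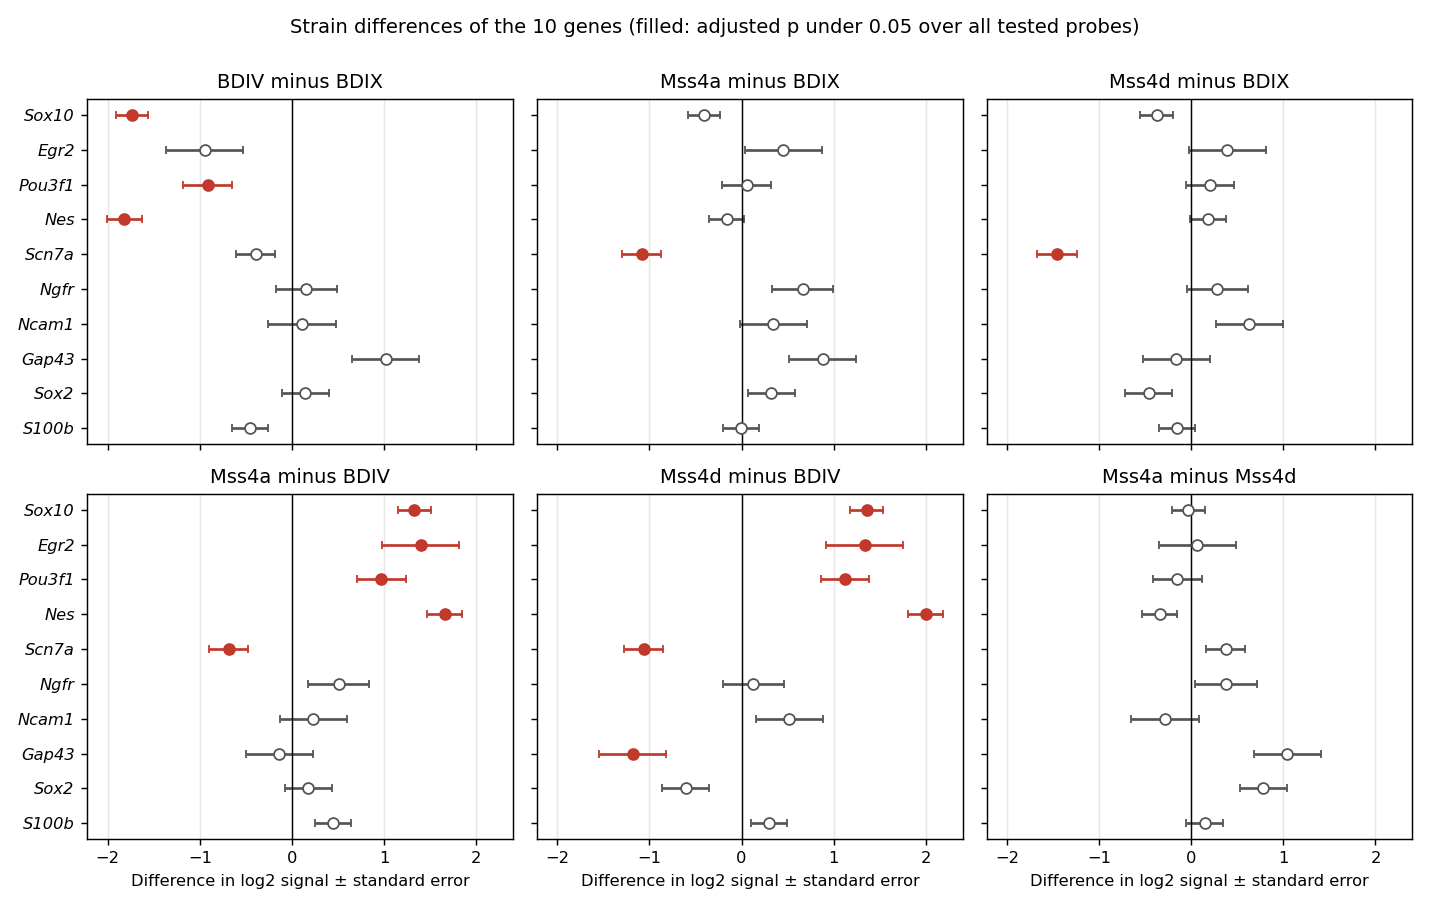
Difference in log2 signal (horizontal axis) with its standard error for each gene in the 6 strain comparisons, n = 2 arrays per strain; filled points passed an adjusted p under 0.05. Sox10, Pou3f1 and Nes stand on the low side in BDIV against BDIX and, with Egr2, on the high side in both congenic strains against BDIV.

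*Sox10* (probe ILMN_1366090, chr7:112605721-112615097, GRCr8) encodes the transcription factor that specifies and maintains the glial lineage of the neural crest. Its log2 signal was 12.68 and 12.49 in BDIX, 10.87 and 10.83 in BDIV, 12.23 and 12.12 in Mss4a, and 12.37 and 12.05 in Mss4d. Both BDIV arrays lay more than 1 log2 unit below every other array. The difference BDIV minus BDIX was -1.73 ± 0.18 (SE; 3.33-fold lower; adjusted p = 0.00443), in the same direction in both sexes. Mss4a exceeded BDIV by 1.33 ± 0.18 (adjusted p = 0.00373) and Mss4d exceeded it by 1.36 ± 0.18 (adjusted p = 0.00347). From highest to lowest the strain means ran BDIX, Mss4d, Mss4a, BDIV, and of the steps between neighbours only that from Mss4a to BDIV passed. Mss4a minus Mss4d had a 95% interval of -0.45 to 0.39. The congenic strains lay below BDIX by amounts that did not pass, -0.41 ± 0.18 in Mss4a (adjusted p = 0.163) and -0.38 ± 0.18 in Mss4d (adjusted p = 0.228), and scaling arrays to their medians turned the latter to 0.17 and made the former pass at -0.86 (adjusted p = 0.0119).

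*Egr2* (probe ILMN_1370369, chr20:21050149-21055201), also called Krox20, encodes the zinc finger factor required for myelination. The log2 signal was 14.18 and 13.27 in BDIX, 12.24 and 13.32 in BDIV, 14.33 and 14.02 in Mss4a, and 14.09 and 14.14 in Mss4d. The BDIX and BDIV arrays overlapped: the BDIV female array was the lowest of the 8, while the BDIV male array lay at the level of the BDIX male array. BDIV minus BDIX was accordingly -1.94 between the female arrays and 0.04 between the male arrays, and the fitted difference of -0.95 ± 0.42 did not pass (adjusted p = 0.150). All 4 congenic arrays lay above both BDIV arrays, by 1.40 ± 0.42 in Mss4a (adjusted p = 0.0402) and 1.34 ± 0.42 in Mss4d (adjusted p = 0.0499). Without the BDIV female array these were 0.67 (adjusted p = 0.278) and 0.60 (adjusted p = 0.327). Without the filter on dim probes both calls were lost (adjusted p = 0.0954 and 0.118), as was that of Mss4a under median scaling of the arrays (0.88, adjusted p = 0.0968) and that of Mss4d with the authors' deposited values (adjusted p = 0.0502). The order of means was Mss4a, Mss4d, BDIX, BDIV, and no step between neighbours passed.

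*Pou3f1* (probe ILMN_1361550, chr5:142195090-142198070), also called Oct6 or SCIP, encodes the POU factor of the promyelinating stage. Its signal was faint: 5.99 and 6.45 in BDIX, 5.27 and 5.34 in BDIV, 6.02 and 6.53 in Mss4a, and 6.65 and 6.21 in Mss4d, and the detection p on the BDIV arrays was 0.0364 and 0.0267. Both BDIV arrays lay below the other 6, and BDIX, Mss4a and Mss4d overlapped. BDIV minus BDIX was -0.92 ± 0.26 (adjusted p = 0.0487), a call that was lost without any 1 of the 4 BDIX and BDIV arrays (adjusted p up to 0.240), without background correction (-0.45, adjusted p = 0.0927) and without the filter on dim probes (adjusted p = 0.0872). The congenic strains exceeded BDIV by 0.97 ± 0.26 in Mss4a (adjusted p = 0.0298) and 1.12 ± 0.26 in Mss4d (adjusted p = 0.0206). Without background correction these were 0.48 (adjusted p = 0.0620) and 0.56 (adjusted p = 0.0423), and the Mss4a call was also lost under median scaling of the arrays (0.61, adjusted p = 0.0688) and without the filter (adjusted p = 0.0540). By strain mean the order was Mss4d, Mss4a, BDIX, BDIV, with only the last step passing.

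*Sox2* (probe ILMN_1373901, chr2:119465131-119467542) encodes a factor of immature and repair Schwann cells that opposes myelination. Log2 signals were 7.79 and 8.23 in BDIX, 8.33 and 7.99 in BDIV, 8.30 and 8.37 in Mss4a, and 7.79 and 7.32 in Mss4d. It did not follow the low BDIV values of the other 3 factors, and no difference passed. The largest was Mss4a minus Mss4d at 0.78 ± 0.25 (adjusted p = 0.132), which scaling to medians turned to -0.11. Mss4d minus BDIV was -0.61 ± 0.25 (adjusted p = 0.113). From high to low the means ran Mss4a, BDIV, BDIX, Mss4d.

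*Nes* (probe ILMN_1366067, chr2:175735715-175745631) encodes nestin, an intermediate filament protein of progenitors and immature glia that vessels and muscle can also express. On the log2 scale it measured 12.16 and 11.92 in BDIX, 10.14 and 10.30 in BDIV, 11.88 and 11.87 in Mss4a, and 12.12 and 12.32 in Mss4d. Both BDIV arrays lay more than 1 log2 unit below every other array, and the other 3 strains lay close together. BDIV minus BDIX was -1.82 ± 0.19 (3.53-fold lower; adjusted p = 0.00462). Mss4a exceeded BDIV by 1.66 ± 0.19 (adjusted p = 0.00259) and Mss4d by 2.0 ± 0.19 (adjusted p = 0.00215). These last 2 were the only differences of the 16 that passed with every single array left out (adjusted p up to 0.0471 and 0.0409). The order of means was Mss4d, BDIX, Mss4a, BDIV, with only the step from Mss4a to BDIV passing.

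*Scn7a* (probe ILMN_1351576, chr3:71743873-71846454) encodes a sodium channel related to the voltage-gated family that is found in non-myelinating Schwann cells and in sensory neurons. The arrays gave log2 signals of 12.18 and 11.85 in BDIX, 11.66 and 11.58 in BDIV, 11.10 and 10.77 in Mss4a, and 10.94 and 10.18 in Mss4d. All 4 congenic arrays lay below all 4 parental arrays, a split that 10% of tested probes showed in this direction and 10.2% in the other. Mss4a minus BDIX was -1.08 ± 0.21 (2.12-fold lower; adjusted p = 0.0268) and Mss4d minus BDIX was -1.46 ± 0.21 (2.74-fold lower; adjusted p = 0.0223). Against BDIV the differences were -0.69 ± 0.21 in Mss4a (adjusted p = 0.0450) and -1.06 ± 0.21 in Mss4d (adjusted p = 0.0121). The Mss4a call against BDIV was lost without the filter on dim probes (adjusted p = 0.0531) and without the sex term (0.0857), and the difference was -1.47 with arrays scaled to their medians. By strain mean the order was BDIX, BDIV, Mss4a, Mss4d, with only the middle step passing. Both congenic means thus lay below both parental means. Markers of thyroid follicle stood high on the Mss4d male array, the lowest array for *Scn7a*, and to a lesser degree on the Mss4d female array. Without the male array Mss4d minus BDIX was -1.20. Markers of nasal and salivary glands stood high on both Mss4a arrays. The part of these tissues in the *Scn7a* values was not tested. *Scn7a* was also the gene of the 10 with the smallest p between the sexes: male arrays were lower in all 4 strains, and male minus female was -0.37 ± 0.15 (unadjusted p = 0.0414, limma; adjusted p = 0.926).

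*Gap43* (probe ILMN_1356366, chr11:71882131-71975799) encodes a growth-associated membrane protein of regenerating axons and of Schwann cells without myelin. Its log2 signal was 12.96 and 13.28 in BDIX, 14.22 and 14.05 in BDIV, 13.87 and 14.13 in Mss4a, and 13.56 and 12.36 in Mss4d. Both BDIV and both Mss4a arrays lay above all BDIX and Mss4d arrays, and the Mss4d arrays stood 1.19 apart, the male one being the lowest of the 8. Mss4d minus BDIV was -1.18 ± 0.36 (adjusted p = 0.0475), and -0.52 without the Mss4d male array (adjusted p = 0.266). Median scaling of the arrays ended the call too (adjusted p = 0.109), as did fits with the authors' deposited values (0.0781) or without the filter on dim probes (0.107). BDIV minus BDIX was 1.02 ± 0.36 and did not pass (adjusted p = 0.0883), though it passed without both Mss4d arrays (adjusted p = 0.0228). Mss4a exceeded BDIX by 0.88 ± 0.36 (adjusted p = 0.146) and Mss4d by 1.04 ± 0.36 (adjusted p = 0.150). From high to low the means ran BDIV, Mss4a, BDIX, Mss4d, and no step between neighbours passed.

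Sensory neurons also express *Gap43*, and their markers were high in BDIV as well. The summed signal of the 16 neuronal probes was 101791 and 83473 in the BDIX arrays, 153235 and 156713 in BDIV, 90031 and 112572 in Mss4a, and 92133 and 62065 in Mss4d. Of 15 neuronal genes tested, 8 rose and 0 fell in BDIV against BDIX (median 1.13), among them *Thy1* (1.76 ± 0.30), *Uchl1* (1.67 ± 0.29), *Isl1* (1.63 ± 0.33) and *Gal* (1.59 ± 0.27). In Mss4d against BDIV 12 fell and 0 rose (median -1.31), and in Mss4a against BDIV 9 fell and 0 rose (median -0.87), where *Gap43* differed by -0.14 (adjusted p = 0.791). In Mss4a against BDIX 0 neuronal genes passed (median 0.25), though 11 of the 15 lay higher. With the authors' values 2 rose and 0 fell there (median 0.42), and with arrays scaled to their medians 0 rose and 1 fell (median -0.17). The only neuronal gene with a probe not above background on any array was *Scn9a*. The part of neuronal RNA in the *Gap43* values was not tested. Markers of thyroid follicle stood high on the Mss4d male array, where *Gap43* was lowest: their summed signal was 48759 there, 5111 on the Mss4d female array and 135 to 248 elsewhere. Their part was not tested.

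*Ngfr* (probe ILMN_1365512, chr10:81012077-81030305) encodes the p75 neurotrophin receptor of immature and non-myelinating Schwann cells and of sensory neurons. The log2 signal was 11.52 and 11.33 in BDIX, 11.52 and 11.64 in BDIV, 11.83 and 12.35 in Mss4a, and 12.19 and 11.23 in Mss4d. The 2 Mss4d arrays spanned almost the whole range of the 8, and no comparison passed. The difference with the smallest p was Mss4a minus BDIX at 0.66 ± 0.33 (adjusted p = 0.213), and BDIV minus BDIX had a 95% interval of -0.63 to 0.94. The order of means was Mss4a, Mss4d, BDIV, BDIX.

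*Ncam1* (probe ILMN_1370085, chr8:58762088-59062131) encodes the neural cell adhesion molecule, a surface protein of immature and non-myelinating Schwann cells. Log2 signals were 4.98 and 5.73 in BDIX, 5.32 and 5.62 in BDIV, 6.09 and 5.31 in Mss4a, and 6.24 and 5.74 in Mss4d, with the BDIX female and Mss4a male values not above background. Both Mss4d arrays lay above the BDIX and BDIV arrays, the nearest BDIX array by little, and the other strains overlapped. No difference passed, and at this signal the 95% interval of BDIV minus BDIX ran from -0.75 to 0.98. By strain mean the order was Mss4d, Mss4a, BDIV, BDIX.

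*S100b* (probe ILMN_1373043, chr20:12372345-12381159) encodes a calcium-binding protein of Schwann cells and astrocytes that fat and cartilage also express. On the log2 scale it measured 14.02 and 13.89 in BDIX, 13.39 and 13.62 in BDIV, 13.95 and 13.95 in Mss4a, and 13.95 and 13.65 in Mss4d. Both BDIV arrays lay below the other 6, the BDIV male array by little. BDIV minus BDIX was -0.45 ± 0.20 (adjusted p = 0.146), with a 95% interval of -0.92 to 0.01. Mss4a minus BDIV was 0.44 ± 0.20 (adjusted p = 0.124), and -0.10 with arrays scaled to their medians. From high to low the means ran BDIX, Mss4a, Mss4d, BDIV, and no step passed. Both BDIV arrays thus lay below the other 6 arrays for 4 of the 10 genes (*Sox10*, *Pou3f1*, *Nes* and *S100b*) and above them for 0, where 20.4% of all tested probes lay below and 18.9% above.

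Of the 16 differences past the threshold, 10 passed in all 5 other processing settings (the exceptions were *Pou3f1* in BDIV against BDIX, *Egr2* in both congenic strains, *Pou3f1* and *Scn7a* in Mss4a and *Gap43* in Mss4d against BDIV), and all 16 kept their sign in every setting and with every array left out. Scaling arrays to their medians lowered the differences of Mss4a from BDIV to 0.59 for *Sox10* and 0.90 for *Nes*. Leaving out arrays removed more calls. The BDIV against BDIX calls of *Sox10* and *Nes* were lost without the BDIV female array (adjusted p = 0.0995 and 0.101), the BDIV male array (0.0622 and 0.0653) or the BDIX female array (0.0561 for both), although their differences stayed between -1.65 and -1.82 for *Sox10* and between -1.64 and -2.0 for *Nes*. *Sox10* in Mss4a and Mss4d against BDIV was lost only without the BDIV female array (adjusted p = 0.0582 and 0.0558). *Scn7a* against BDIX was lost in Mss4a without either array of Mss4a, BDIV or BDIX (adjusted p up to 0.102) and in Mss4d without the Mss4d male, either BDIV or the BDIX female array (adjusted p up to 0.150). Against BDIV, *Scn7a* in Mss4d was lost without the Mss4d male or either BDIV array (adjusted p up to 0.133) and in Mss4a passed only without either Mss4d array (adjusted p up to 0.306). *Egr2*, *Pou3f1* and *Gap43* against BDIV reached adjusted p values of up to 0.327, 0.171 and 0.266.

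**Figure D3:**
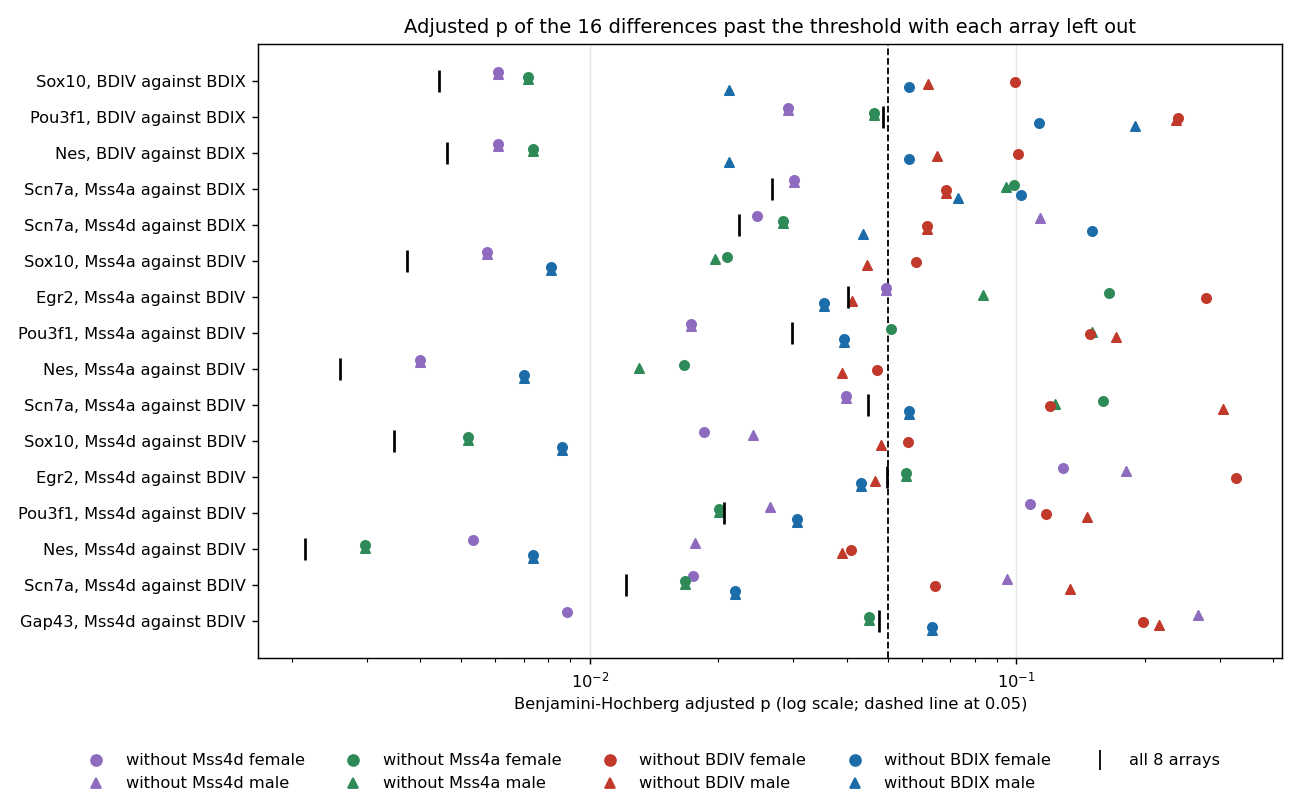
Benjamini-Hochberg adjusted p (horizontal, log scale) of the 16 differences past the threshold, with all 8 arrays (vertical bars) and with each array left out (coloured symbols); the dashed line marks 0.05. Only the Nes differences of both congenic strains from BDIV keep every symbol on the low side of the line.

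The myelin genes, many of them targets of *Sox10* and *Egr2*, were lower than in BDIX in BDIV, as *Sox10* was, and also in Mss4a. *Sox10* in Mss4a against BDIX did not pass (-0.41, adjusted p = 0.163) but did with arrays scaled to their medians. Of 11 tested, 8 fell and 0 rose in BDIV against BDIX (median -1.13, against -0.03 for all tested probes), with *Gldn* at -1.91 ± 0.25, *Cnp* at -1.83 ± 0.19, *Mbp* at -1.54 ± 0.24 and *Cldn19* at -1.39 ± 0.22. In Mss4a against BDIX 6 fell and 0 rose (median -1.0), and in Mss4d against BDIX 2 fell and 0 rose (median -0.18), *Mbp* (-2.12 ± 0.24) and the galactolipid enzyme gene *Ugt8* (-1.08 ± 0.21). With the authors' values 4 fell and 1 rose in Mss4a against BDIX (median -0.64). In Mss4d against BDIV 5 rose and 0 fell (median 0.62), and in Mss4a against BDIV 2 rose and 1 fell (median 0.08, and -0.34 with arrays scaled to their medians). *Mbp* was low in both congenic strains. *Egr2* lay above its BDIX mean in both, by amounts that did not pass. Whether *Sox10* or *Egr2* had a part in the myelin gene values was not tested. The summed myelin signal was 146627 and 111309 in the BDIX arrays, 60469 and 69889 in BDIV, 92346 and 86849 in Mss4a, and 108263 and 106813 in Mss4d.

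Other nerve cell markers were lower in BDIV as well. Of 11 tested genes of fibroblasts and perineurium 6 fell and 0 rose against BDIX (median -1.14), among them *Col5a1* (-1.77 ± 0.18) and *Sparc* (-1.55 ± 0.20), with a summed signal of 71482 and 82198 in BDIV against 123505 and 114848 in BDIX. Of 6 tested genes of endothelium, which can express *Nes*, 3 fell and 0 rose (median -0.75), with a summed signal of 2612 and 2654 in BDIV against 5711 and 5472 in BDIX, 7799 and 6893 in Mss4a, and 7257 and 10029 in Mss4d. The defining endothelial gene *Cdh5* was not above background on any array. Of 9 tested genes of central glia, which also express *Sox10*, *Sox2* and *S100b*, 1 rose and 0 fell in BDIV against BDIX, and 7 to 9 of the 11 with a probe were above background on each array. In the same comparison 1 of 5 skeletal muscle genes and 1 of 7 macrophage genes rose, 2 of 4 cartilage genes fell, and 0 of 4 adipocyte, 0 of 3 melanocyte, 0 of 4 thyroid and 0 of 6 nasal and salivary gland genes passed. Markers of sensory neurons went the other way in this comparison (median 1.13, given above). Whether any of these cell types, sensory neurons included, had a part in the *Sox10*, *Pou3f1* and *Nes* differences was not tested. Markers of nasal and salivary glands stood high on the Mss4a arrays (5263 and 5068 summed, 94.4 to 202 elsewhere), and their part in the Mss4a values was not tested either.

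Other regulators of the Schwann cell lineage did not move as a group. Of 18 tested, 0 rose and 3 fell in BDIV against BDIX (median -0.23): *Sox8*, the close relative of *Sox10* (-1.12 ± 0.25), the histone deacetylase gene *Hdac1* (-0.82 ± 0.18) and *Nab1*, a cofactor of Egr proteins (-0.77 ± 0.21). Against BDIV, 3 were higher and 2 lower in each congenic strain. *Sox8* exceeded BDIV by 2.05 ± 0.25 in Mss4a and 1.19 ± 0.25 in Mss4d, and *Hdac1* did so in both, by 1.20 ± 0.18 in Mss4d. The largest falls were *Hdac2* in Mss4a (-1.08 ± 0.18) and *Sox11* in Mss4d, not above background there and at least 1.77-fold lower. *Nab1* was lower than in BDIV in both. *Nab1* fell in Mss4a against BDIX by 1.54 ± 0.21, where 1 of 2 Mss4a arrays was above background, and was at least 2.81-fold lower in Mss4d, where it was not above background (adjusted p = 0.0167; the bound sets the BDIX mean against the lowest detected signal of each Mss4d array, or the probe's own where higher). *Hdac2* fell against BDIX by 1.54 ± 0.18 in Mss4a and by 0.98 ± 0.18 in Mss4d. In Mss4d 1 rose and 3 fell against BDIX, the others being *Pax3* (1.39 ± 0.25, above background on 1 of 2 BDIX arrays) and *Yy1* (-0.96 ± 0.20).

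Among 7 other tested genes of immature or repair Schwann cells, 1 rose and 0 fell in BDIV against BDIX (median 0.28), the signalling factor gene *Shh* (0.72 ± 0.20, above background on 1 of 2 BDIX arrays). The *Shh* call was lost whichever array was left out, and with the authors' values 0 genes of this list passed. The intermediate filament gene *Vim*, a usual companion of *Nes*, had its lowest means in the congenic strains and not in BDIV. Its mean was 14.42 in BDIX and 13.90 in BDIV, a difference that did not pass. *Vim* fell against BDIX in Mss4a (-1.60 ± 0.19) and Mss4d (-1.23 ± 0.19), and it was lower than in BDIV in both (-1.09 ± 0.19 and -0.72 ± 0.19). As for *Scn7a*, both congenic means of *Vim* lay below both parental means. Immediate early genes, to which *Egr2* is related, were examined after the values had been seen. Of 7 tested, 0 rose and 3 fell in BDIV against BDIX (median -0.64), *Egr1* (-1.54 ± 0.17), *Fos* (-1.33 ± 0.34) and *Junb* (-0.93 ± 0.17), and 4 rose and 0 fell in each congenic strain against BDIV (2 rose in Mss4a with arrays scaled to their medians). Their summed signal was 4723 and 3086 in the BDIX female and male arrays and 2537 and 3035 in BDIV. Their mean log2 signal was 7.56 and 7.54 in BDIX and 6.92 and 7.03 in BDIV, so by this measure BDIV was lower in both sexes, whereas *Egr2* was lower between the female arrays only. Their part in the *Egr2* values was not tested.

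**Figure D4:**
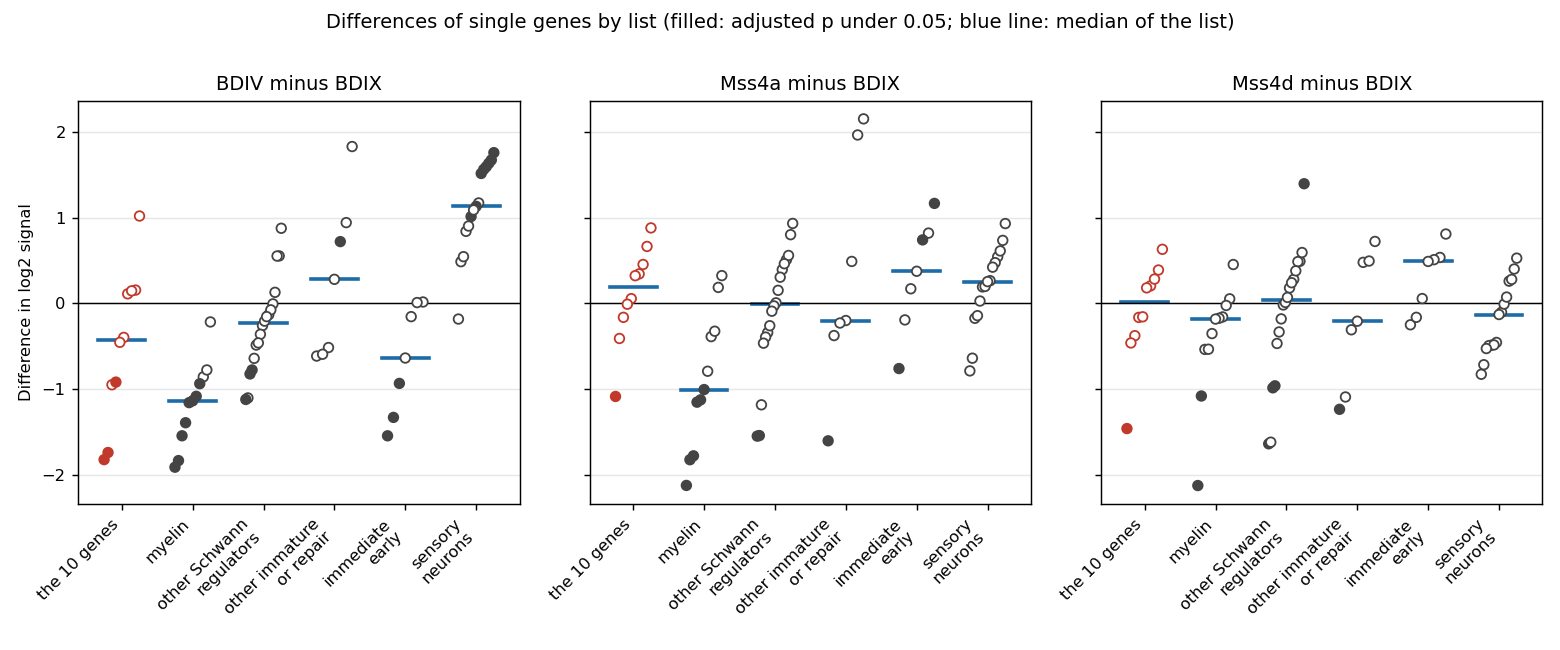
Difference in log2 signal from BDIX (vertical axis) of each tested gene of the 10 and of 5 lists in BDIV, Mss4a and Mss4d; filled points passed an adjusted p under 0.05 and blue lines are list medians. The myelin medians are -1.13, -1.0 and -0.18 from left to right, and the neuronal median is 1.13 in BDIV.

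Among 9352 other named probes, those whose profile over the 8 arrays was most like that of a gene were listed by Pearson's r, as a description of arrays that share strain and normalization. They were *Filip1* (0.994) and *Leprot* (0.989) for *Sox10*, and *Tjap1* (0.996) and *Stx6* (0.995) for *Nes*. For *Egr2* they were *Rnf217* (0.978) and *Tesk2* (0.971), for *Pou3f1* *Padi3* (0.986) and *Mrps5* (0.967), and for *Sox2* *Gng10* (0.931) and *Dpm1* (0.929). The *Scn7a* profile was most like *Tmem165* (0.982) and *Stx12* (0.980), and that of *S100b* like *Golga7* (0.976) and *Swap70* (0.970). The *Gap43* profile was most like *Kcnip2* (0.978) and *Bdnf* (0.977), the gene of a neurotrophin. For *Ngfr* they were the mast cell protease gene *Mcpt9* (0.971) and *Ttll1* (0.933), and for *Ncam1* *Nudt6* (0.913) and *Hdac8* (0.903).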

How the data were processed

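Per the labels' protocols, RNA was extracted with TRIzol, labelled with biotin and read in GenomeStudio 2010. The authors deposited a table of non-normalized linear intensity, the mean signal over a probe's beads, and a detection p-value for every entry. The authors' value table, also linear intensity, was a straight line of the non-normalized signal on each array (largest residual 0.0143), so neither its scaling nor its background option is known beyond that, and some of its values lie below 0.

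The non-normalized signal was used. In R 4.3.3 with limma 3.58.1, neqc (offset 16) corrected the background, with its negative controls inferred by way of the p-values, quantile normalized the arrays and took log2. Tests covered the 13114 of 22523 probes that 2 or more of the 8 arrays detected at p under 0.05. Each was fitted with strain and sex over all 8 arrays (lmFit and eBayes, 3 residual and 4.09 prior degrees of freedom, prior SD 0.223), two-sided, with Benjamini-Hochberg adjustment over all tested probes and a threshold of 0.05, for 6 strain comparisons and 1 between the sexes. The fit was tested on simulated data.

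Of all probes 13793 had 1 symbol in the platform annotation and 8730 had none or more than 1. Gene identifiers tied 13752 to the GRCr8 annotation, from which coordinates and promoter sequences were taken. The labels name no genome build for the array. Other genes were named by rule: up to 4 of each list past the threshold by size of difference, a gene being represented by its brightest probe, and the 2 most correlated genes of each of the 10. Fitted differences of the 10 genes are printed where the unadjusted p was under 0.1, and for *Gap43* in Mss4a against BDIV beside the neuronal genes. Of the remaining comparisons only some have an interval printed. Summed list signals are linear normalized signals less the offset. The members, the 14 lists and the tests were chosen with earlier results of these data known, and 1 list (immediate early genes) was added after seeing the data.

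The alternatives were no background correction, arrays scaled to their medians, the authors' values (floored at 1, pseudocount 16), no filter, no sex or strain term, and each array left out. Fits without both arrays of Mss4d or of Mss4a were chosen after seeing the data.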

Additional observations from a re-analysis of the deposited data

Results flagged for a closer look

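A strain difference ran one way between the female arrays and the opposite way between the male arrays, by at least 0.25 log2 units in each, in 6 pairs of gene and comparison, each value resting on 1 array per strain and sex. This difference between the sexes was not tested, since the design leaves no degrees of freedom for it. Over all tested probes male minus female had an SD of 0.51 in BDIX, 0.22 in BDIV, 0.49 in Mss4a and 0.51 in Mss4d. The share of all tested probes with such opposite signs was not counted. *Ncam1*, faint and not above background on 2 arrays, was 1.11 higher in Mss4a than in BDIX in females and -0.42 in males, and 0.77 against BDIV in females and -0.31 in males. *Ngfr* in Mss4a against Mss4d was -0.36 in females and 1.12 in males, and in Mss4d against BDIV it was 0.66 in females and -0.41 in males. *Gap43* in Mss4d against BDIX was 0.59 in females and -0.92 in males. *Pou3f1* in Mss4a against Mss4d was -0.62 in females and 0.32 in males. The pairs of *Ngfr*, *Gap43* and *Pou3f1* all include Mss4d. Its male array carried most, and its female array some, of the thyroid follicle signal given above, and the part of that signal was not tested.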

How the results depend on the processing

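With 2 arrays per strain the calls depended mainly on single arrays. The counts given for lists of other genes rest on all 8 arrays. Those of the myelin, neuronal and immediate early genes in BDIV against BDIX also fell when some single arrays were left out, as did the myelin count in Mss4a against BDIX. Leaving out each array in turn, the tested probes past the threshold ranged from 14 to 2781 in BDIV against BDIX, from 0 to 1241 in Mss4a and from 0 to 1177 in Mss4d against BDIX, from 0 to 252 in Mss4a against Mss4d, and from 460 to 4876 in Mss4a and from 485 to 4325 in Mss4d against BDIV, and stayed at 0 to 0 between the sexes. The counts of 0 came without the BDIX female array against BDIX (3419 and 2359 probes at an unadjusted p under 0.05 in Mss4a and Mss4d) and without either BDIV array in Mss4a against Mss4d (2432). A strain left with 1 array was taken to have the spread of the rest. Of the 10 genes, 0 to 4 passed in BDIV against BDIX, 0 to 1 in each congenic strain against BDIX and in Mss4a against Mss4d, 1 to 5 in each congenic strain against BDIV, and 0 to 0 between the sexes.

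Scaling arrays to their medians moved the median of all tested probes by -0.37 and 0.24 in Mss4a and Mss4d against BDIX, -0.65 in Mss4a against Mss4d, and -0.44 and 0.11 in Mss4a and Mss4d against BDIV, and gave 3994, 2723 and 6669 probes in the first 3 comparisons (main counts 1605, 700 and 160). The share of calls that were higher went from 39.1% to 4.43%, 25.9% to 71.9% and 24.4% to 1.77% in these, from 47.6% to 62.5% in BDIV against BDIX, and from 50.9% to 12.3% and 49.6% to 60.6% in Mss4a and Mss4d against BDIV. Of the 10 genes 3, 2 and 4 then passed in the first 3 and 3 in Mss4a against BDIV, and the differences of *Sox10* in Mss4d against BDIX (0.17, adjusted p = 0.506), *Sox2* in Mss4a against Mss4d (-0.11, adjusted p = 0.729) and *S100b* in Mss4a against BDIV (-0.10, adjusted p = 0.686) changed sign. The authors' values shifted the median by 0.16 and 0.11 in Mss4a and Mss4d against BDIX and by 0.12 in Mss4a against BDIV, and the higher share in Mss4a against BDIX was 62.1% with them. In Mss4a against Mss4d, 104 probes passed without background correction, 39 with the authors' values, 21 without a filter and 258 without the sex term. Without a filter 303 probes passed in Mss4d against BDIX, and 2 of the 10 genes in Mss4a against BDIV. The cause was not tested for these changes. No paired analysis was possible because pools carry no numbers in the labels, and sex is already a term of the fit.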
